A study of Homo sapiens with 6 samples.

Results

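The 58 genes described here act in homologous recombination and in the Fanconi anemia pathway of DNA crosslink repair, and were taken from a list of symbols out of the 60483 genes counted in each library. Each symbol matched 1 row of the count table by its Ensembl identifier. RNA was measured by paired-end RNA sequencing of total RNA from HAP1 (C631) cells, a near-haploid human line labelled as chronic myelogenous leukemia, and from HAP1 HELLS KO cells, with 3 libraries of each (replicates 1, 2 and 3). Both lines were kept under normal growth with no drug. HELLS is a chromatin remodeler of the SNF2 family that is known for its part in DNA methylation. The knockout line carries a single base insertion in an early exon of HELLS and was bought as 1 edited line beside its parent. Its differences from HAP1 therefore cannot be told apart from differences between 2 separately grown lines.

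Homologous recombination copies sequence from a sister chromatid to mend a broken DNA end. The end is trimmed to single-stranded DNA by resection, coated by RPA, and loaded with recombinase by BRCA2 and its partners. The joined molecules are later taken apart by helicases or cut by nucleases. In the Fanconi pathway a core complex with the enzyme UBE2T attaches ubiquitin to the FANCD2-FANCI pair at a blocked replication fork, after which nucleases unhook the crosslink. Proliferating cells use these genes mainly in S and G2 phase, and inhibitors of PARP kill cells in which they fail.

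The promoters of the members are shown first, because HELLS is tied to DNA methylation, which acts on CpG, and because many S phase genes carry E2F-type sites near their start. RefSeq windows on GRCh38.p14, from 250 bases before to 50 bases after the start, were matched for 49 of the 58 members. RPA2, RECQL4, FANCI, RMI2, NBN, DNA2, RPA3, WRN and RAD54B were not matched. The letters TTTGGCGC, TTTCCCGC and GGCGGGAA (E2F type), CCAAT, and TTTGAA were searched on both strands, and the E2F-type words can overlap one another, as they do in FANCD2. An E2F-type word stood in 14 of 49 member promoters (28.6%), in 892 of 11973 promoters of tested genes (7.45%), and in 1260 of all 27305 promoters (4.61%). It stood in 12 of 18 promoters of the S phase list (66.7%) and in 4 of 44 of the other break repair, Fanconi and fork protection genes (9.09%). Most of these were GGCGGGAA, present in 12 members, while TTTCCCGC was in 4 and TTTGGCGC in 1. CCAAT stood in 23 member promoters (46.9%) against 36.5% of tested genes and 35.7% of all promoters, and TTTGAA in 6 (12.2%) against 9.61% and 15.4%. A match is a description of the letters and not a mapped site. The windows below, read 5′ to 3′ on the gene's own strand, show the E2F-type word or its reverse complement in capitals for 6 members. They are RAD54L (chr1:46247625-46247660, + strand), XRCC2 (chr7:152676100-152676135, - strand), BLM (chr15:90717334-90717369, + strand), FANCC (chr9:95317734-95317769, - strand), FANCD2 (chr3:10026420-10026455, + strand) and MCM8 (chr20:5950664-5950699, + strand).
RAD54L: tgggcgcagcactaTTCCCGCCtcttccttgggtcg
XRCC2: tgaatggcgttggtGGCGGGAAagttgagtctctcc
BLM: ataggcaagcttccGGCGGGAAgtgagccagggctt
FANCC: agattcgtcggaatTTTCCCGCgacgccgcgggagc
FANCD2: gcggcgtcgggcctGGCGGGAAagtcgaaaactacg
MCM8: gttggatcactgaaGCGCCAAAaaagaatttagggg

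The promoter of BRIP1, the helicase that binds BRCA1, held all 3 kinds of word in 1 window (chr17:61863479-61863778, - strand, GRCh38.p14). Its capitals mark, in order along the strand, 1 TTTGAA word and 3 CCAAT words, all written as their reverse complement, and 1 GGCGGGAA word that starts at base 2 of the transcript.
BRIP1: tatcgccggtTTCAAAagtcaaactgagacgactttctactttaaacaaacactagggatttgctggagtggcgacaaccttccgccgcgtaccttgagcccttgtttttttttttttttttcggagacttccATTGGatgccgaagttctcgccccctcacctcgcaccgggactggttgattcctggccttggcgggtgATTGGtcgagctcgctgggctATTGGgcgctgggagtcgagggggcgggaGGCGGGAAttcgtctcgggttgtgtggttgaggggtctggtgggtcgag

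Member promoters were dense in CpG. The ratio of observed to expected CpG had a median of 0.919 over the 49 members, against 0.834 over the promoters of tested genes and 0.580 over all promoters. In 47 of 49 members (95.9%) the ratio was at least 0.6, and the exceptions were RAD51B at 0.258 and SFR1 at 0.358. The windows of both (chr14:67823291-67823590 and chr10:104119916-104120215) do not hold the annotated start of the gene (67819779 and 104122058). That is also so for some members over 0.6, such as RAD54L and FANCC. Among promoters of tested genes 81.4% reached 0.6, and among all promoters 49.0%. Genes called higher in HELLS KO had a median ratio of 0.664 (168 promoters) and genes called lower 0.721 (86 promoters). These are descriptions of the windows, and no methylation was measured in these files.

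Total counts per library came to 14286431, 13641237 and 24126357 for HAP1, and for HELLS KO to 14115255, 14859360 and 24400187, so replicate 3 was the deepest in both lines. Replicate 3 of both lines also carries a batch label that the other libraries lack. For HELLS itself the HAP1 libraries gave 1444, 1488 and 3671 counts and those of HELLS KO gave 1410, 1375 and 2802 (edgeR log2 fold change -0.24, 95% interval -0.66 to 0.19). A base insertion need not lower the RNA, so these counts do not check the labels. Of 12 hematopoietic markers, 8 had at most 10 counts in every library and SPI1 and HBG1 had 0 in all. The summed level of the list was 108 to 141 CPM in HAP1 and 82.2 to 89.5 CPM in HELLS KO. PTPRC, MPO and ITGAM, which define blood and myeloid cells, were at or near 0. Most of the sum came from TAL1, which lay at 78.15 CPM or more in each library. KIT, a further marker of the list, ran from 2.20 to 38.9 CPM over the libraries and was lower in HELLS KO (edgeR log2 fold change -2.90).

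No member was called different between HELLS KO and HAP1. Of 57 tested members, edgeR's quasi-likelihood test (adjusted p under 0.05 and a log2 fold change of at least 1) called 0 higher, against 1.5% of all 17925 tested genes, and 0 lower, against 0.72%. At an unadjusted p under 0.05, edgeR and DESeq2 each passed 0 members, against 6.59% of all genes in edgeR. The smallest adjusted p among the members was 1.00. Log2 fold changes ran from -0.097 (SFR1) to 0.28 (MCM9). Their median was 0.048, beside 0.0064 over all tested genes, and 41 of 57 were above 0, beside 9328 of 17925. This small median turned with single libraries: leaving out HAP1 replicate 1, 2 or 3 gave 0.0070, -0.010 and 0.14, and leaving out HELLS KO replicate 1, 2 or 3 gave 0.12, 0.039 and -0.014. In 43 members the log2 fold change was under 0.1 in size, and in 55 it was under 0.2.

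The intervals show which sizes of change these libraries leave. The 95% interval of the fold change lay within 2-fold in either direction for 53 of 57 members, against 67.8% of all tested genes. The exceptions were BRIP1, FANCB, BRCA2 and MCM9, with upper bounds at log2 1.02, 1.21, 1.02 and 1.03. With the replicate number as a block, which removes the shift between replicate 3 and the others, all 57 intervals lay within 2-fold, against 77.1% of all genes, and the median reach of the interval to either side fell from 0.42 to 0.23 on the log2 scale. In that fit 1 member, MCM9, had an unadjusted p under 0.05 (edgeR adjusted p = 0.37), against 11.6% of all genes. With replicates 1 and 2 alone, the libraries with no batch label, 0 members passed either threshold and all 57 intervals lay within 2-fold, against 70.3% of all genes. A p that misses the threshold does not show that levels are equal, and in bulk RNA a change in the share of cells and a change in RNA per cell cannot be told apart.

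**Figure D1:**
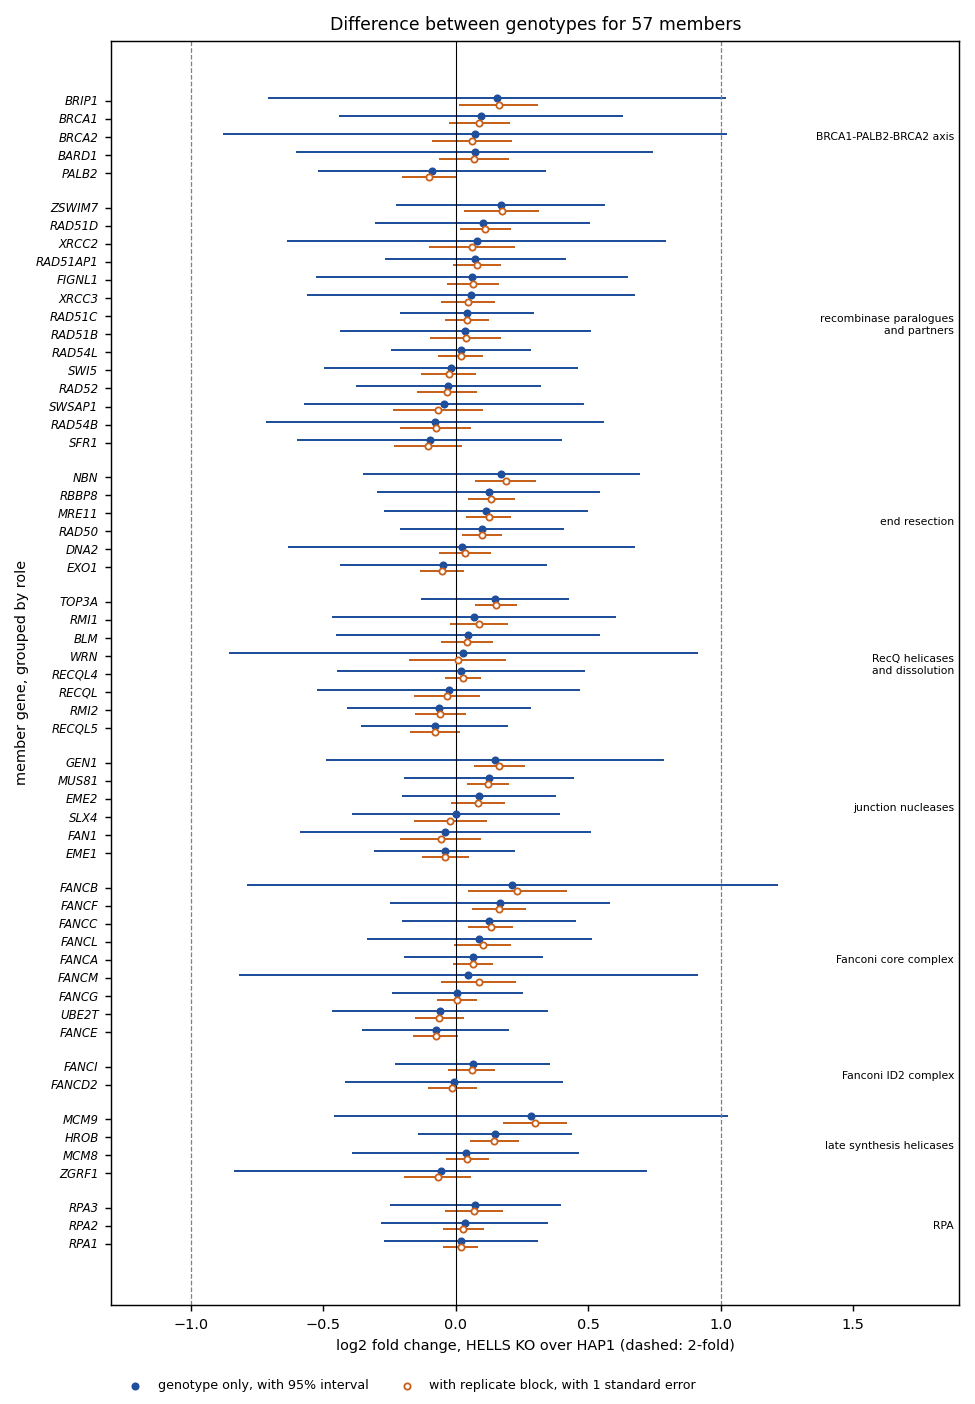
Log2 fold change of HELLS KO over HAP1 (x axis) for 57 members grouped by role (y axis), n = 3 libraries per line; blue points and bars are the genotype fit with its 95% interval, open orange points and bars the fit with the replicate block and 1 standard error. All points lie between -0.11 and 0.30, and 4 blue bars, BRIP1, BRCA2, FANCB and MCM9, cross the dashed 2-fold line.

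Levels are given from here on as FPKM, the deposited unit that divides by gene length and library size, in the order of replicates 1, 2 and 3. Fold changes are edgeR log2 values with their SE from the fit on genotype, and coefficients of variation are those of TMM-scaled CPM, which differ a little from those of the FPKM beside them. Across the 57 tested members, mean FPKM in HAP1 spanned 29.8-fold, from 1.98 for RAD51B to 59.2 for UBE2T, with a median of 14.3 beside 7.37 for all tested genes. The lowest of them stood at percentile 26.2 and the highest at percentile 99.1 of tested genes, and 47 of 57 members were above the median gene. Only 1 of 56 neighboring pairs in the order had HAP1 libraries that did not overlap, so most neighbors do not differ beyond their spread. The order by the mean over the HELLS KO libraries had a Spearman correlation of 0.993 with that by the mean over the HAP1 libraries. Single HAP1 libraries, replicate 3 included, had at least 0.893 among themselves. Both are across genes within these libraries. A mean and a single library differ in noise, and each mean holds a replicate 3, so these values do not compare lines with replicates.

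The BRCA1-PALB2-BRCA2 axis recruits the recombinase to resected DNA, and 0 of its 5 members were called. BRCA1, the ubiquitin ligase that starts the choice of recombination, stood at 16.6, 14.8 and 22.7 in HAP1 and at 14.3, 19.6 and 23.7 in HELLS KO (log2 fold change 0.094, SE 0.23). BARD1, its obligate partner, stood at 7.71, 7.46 and 12.5 and at 6.64, 10.03 and 12.4 (0.072, SE 0.29). In both, replicate 3 was the highest of its line and the lines overlapped. PALB2, which links BRCA1 to BRCA2, stood at 12.7, 11.8 and 14.8 and at 10.1, 11.6 and 15.2 (-0.089, SE 0.18), one of the 5 lowest fold changes. BRCA2, the recombinase loader (chr13:32315086-32400268), stood at 4.99, 4.29 and 9.45 and at 3.81, 6.04 and 9.83 (0.073, SE 0.41). Replicate 3 was the highest library of each line, and the genotypes overlapped. BRIP1 ran from 6.69 to 14.6 in HAP1 and from 6.996 to 15.7 in HELLS KO.

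The recombinase paralogues and partners hold or remodel the recombinase filament. Of these 14 genes, 0 were called, and log2 fold changes ran from -0.097 to 0.17. RAD51C, a core paralogue, had among the steadiest values of any tested member, 12.7, 12.9 and 12.9 in HAP1 (coefficient of variation 1.358% of TMM-scaled CPM) and 13.9, 12.8 and 12.9 in HELLS KO (0.044, SE 0.11). RAD54L, a motor that drives strand exchange, was also steady in HAP1 at 24.8, 24.4 and 24.4 (coefficient of variation 1.00% of TMM-scaled CPM) and stood at 22.9, 25.7 and 25.8 in HELLS KO (0.020, SE 0.11). In both genes the lines overlapped. Its relative RAD54B lay far lower, at 2.83, 2.88 and 4.46 and at 2.42, 3.09 and 4.11 (-0.077, SE 0.27). RAD51B was the lowest tested member at 1.79, 1.83 and 2.33 and at 1.94, 1.76 and 2.39 (0.037, SE 0.20). SFR1, which with SWI5 forms a mediator of recombination, had the most negative fold change, with 10.46, 9.50 and 12.3 against 9.08, 8.40 and 12.6 (-0.097, SE 0.21). For these 3 genes the lines overlapped in range. ZSWIM7, a partner of SWSAP1 in the Shu complex, stood at 10.2, 12.7 and 9.81 against 13.8, 11.0 and 11.8 (0.17, SE 0.17) and overlapped as well. The other 8 genes of this group, RAD51AP1, SWI5, XRCC2, FIGNL1, RAD52, XRCC3, SWSAP1 and RAD51D, had HAP1 means from 27.3 (RAD51AP1) down to 5.43 (RAD51D) and log2 fold changes from -0.044 (SWSAP1) to 0.10 (RAD51D).

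The 6 end resection genes trim the break to single-stranded DNA, and 0 were called. NBN, the signaling subunit of the MRE11-RAD50-NBN complex, had the third largest fold change, with 14.7, 12.98 and 21.4 in HAP1 and 14.95, 18.7 and 21.5 in HELLS KO (0.17, SE 0.22). MRE11, its nuclease, stood at 12.8, 12.8 and 17.4 and at 13.8, 15.3 and 17.3 (0.12, SE 0.16). The nuclease EXO1, which extends the trimmed tract, stood at 24.95, 24.3 and 30.99 and at 21.7, 25.3 and 30.5 (-0.047, SE 0.17). All 3 peaked in replicate 3 of both lines, and the lines overlapped. RAD50, RBBP8 and DNA2 had log2 fold changes of 0.099, 0.12 and 0.022. RPA, which covers the trimmed strand, is among the most abundant parts of the set. RPA1, its largest subunit, stood at 35.7, 36.5 and 30.4 and at 35.8, 36.9 and 30.8 (0.020, SE 0.12). RPA2 stood at 49.99, 52.1 and 43.8 and at 54.2, 51.6 and 43.0 (0.034, SE 0.13). Both were lowest in replicate 3 of each line, the opposite of the resection genes. RPA3, the smallest subunit, had a mean of 11.7 in HAP1 and 12.2 in HELLS KO.

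The 8 RecQ helicases and dissolution genes unwind joint molecules or keep them from forming crossovers, and 0 were called. BLM, the helicase lost in Bloom syndrome, stood at 14.4, 13.8 and 19.8 and at 12.7, 16.6 and 20.1 (0.046, SE 0.21). RECQL4, a helicase that also takes part in replication initiation, was the most abundant of the group at 49.0, 49.6 and 32.7 and at 49.2, 47.7 and 35.4 (0.019, SE 0.20). BLM was highest and RECQL4 lowest in replicate 3 of both lines, and neither separated the genotypes. RECQL5 stood at 8.87, 9.16 and 8.09 and at 8.66, 7.54 and 8.41 (-0.079, SE 0.12). The means of RMI1, RMI2, RECQL and WRN in HAP1 ran from 10.7 (WRN) to 18.4 (RMI2) and their log2 fold changes from -0.063 (RMI2) to 0.068 (RMI1). TOP3A, the topoisomerase that works with BLM, had a log2 fold change of 0.15 (SE 0.12). Its unadjusted edgeR p of 0.25 was the smallest of all members in the fit on genotype. In the edgeR fit with the replicate block its unadjusted p was 0.093, and that of MCM9 was lower at 0.039.

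The junction nucleases cut joint molecules that were not dissolved. SLX4, the scaffold that binds several of these nucleases, stood at 6.95, 6.68 and 6.88 in HAP1 (coefficient of variation 2.40% of TMM-scaled CPM) and at 5.07, 7.48 and 7.87 in HELLS KO (8.5e-07, SE 0.17). FAN1, a nuclease that acts on crosslinks, was the lowest of the tested genes of the group at 4.96, 4.36 and 5.96 and at 3.53, 5.13 and 6.16 (-0.039, SE 0.23). MUS81, EME1, EME2 and GEN1 had log2 fold changes from -0.041 to 0.15, and 0 of the 6 tested nucleases were called. SLX1A (chr16:30193875-30197561), the catalytic partner of SLX4, was the only member that did not pass the filter on low counts. Its counts were 0, 1 and 3 for HAP1 and 1, 0 and 5 for HELLS KO, which is at or near the limit of 3 counts a library, so no fold is given. Its copy SLX1B had 1, 3 and 11 counts and 3, 4 and 11. Of the 31-base stretches of the SLX1A transcripts, 94.7% are also in SLX1B, and the promoter windows of the copies share a stretch of 268 bases. The reads counted were limited to a mapping quality of at least 20, which reads placed equally well at both copies do not reach, so these counts do not give the level of SLX1A.

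The Fanconi core complex monoubiquitinates FANCD2 and FANCI, and 0 of its 9 members here were called. UBE2T, the ubiquitin-conjugating enzyme of this step, had the highest level of any member at 61.9, 66.0 and 49.6 in HAP1 and 64.5, 58.5 and 46.7 in HELLS KO (-0.058, SE 0.17). FANCA, a scaffold of the core, stood at 12.7, 12.3 and 13.3 and at 12.4, 12.8 and 14.7 (0.066, SE 0.11). FANCE, which contacts FANCD2, stood at 29.9, 29.9 and 26.4 and at 28.8, 26.4 and 26.1 (-0.076, SE 0.12). All 3 overlapped between lines. FANCB, an X-linked subunit of the catalytic module (chrX:14690388-14873255), was the most variable tested member in HAP1, with 7.37, 5.49 and 14.1 (coefficient of variation 51.1% of TMM-scaled CPM) and 6.25, 9.65 and 15.4 in HELLS KO (0.21, SE 0.43). FANCM, the motor that anchors the core to DNA (chr14:45135930-45200890), came next with 4.53, 3.66 and 8.57 (47.8% of TMM-scaled CPM) and 4.12, 5.17 and 8.04 (0.048, SE 0.37). In both genes replicate 3 of each line lay above every other library. FANCF, an adaptor of the core, stood at 8.52, 7.85 and 10.02 and at 10.2, 8.05 and 11.3 (0.17, SE 0.18). FANCC, FANCG and FANCL had log2 fold changes of 0.13, 0.0058 and 0.089.

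The FANCD2-FANCI pair is the substrate of the core and clamps the DNA once modified. FANCD2 stood at 16.4, 15.02 and 19.9 and at 13.8, 16.8 and 20.3 (-0.0072, SE 0.18), and FANCI at 32.3, 29.8 and 33.8 and at 28.7, 35.8 and 35.3 (0.064, SE 0.12). Neither separated the lines. Of the helicases of late synthesis, MCM9 (chr6:118813442-118935162), the partner of MCM8, had the largest fold change of any member, with 2.37, 2.25 and 4.22 in HAP1 and 2.61, 3.33 and 4.82 in HELLS KO (0.28, SE 0.32). Each HELLS KO library was above the HAP1 library of the same number, but the lines overlapped, with replicate 3 the highest library of each. Differences of 1 sign at every number were not particular to MCM9. TOP3A, MUS81, GEN1, RBBP8, RAD50, RPA1, FANCC, FANCF and HROB were also higher in HELLS KO at every number, and FANCE was lower. NBN was higher at every number in FPKM but not in TMM-scaled CPM. The share of all tested genes with 1 sign at every number was not computed, and numbers 1 and 2 were not shown to pair the samples. HROB (chr17:44141906-44162476), which loads MCM8 and MCM9 onto DNA, was the only member whose lines did not overlap, against 10.1% of all tested genes. It stood at 18.8, 18.8 and 17.5 in HAP1 and at 22.2, 19.5 and 19.1 in HELLS KO (0.15, SE 0.12, edgeR adjusted p = 1.00). MCM8 and ZGRF1 had log2 fold changes of 0.038 and -0.056.

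The largest differences among the members' libraries lay between replicate 3 and replicates 1 and 2. With genotype in the model, edgeR at an adjusted p under 0.05 called 33 of 57 members higher in replicate 3, against 23.6% of all tested genes, and 8 lower, against 25.5%. Their median log2 fold change was 0.35, beside 0.030 over all genes. FANCB at 1.04, BRCA2 at 1.01, FANCM at 0.93, BRIP1 at 0.92 and WRN at 0.88 rose the most. XRCC3 at -0.69, RECQL4 at -0.52, SWI5 at -0.46 and UBE2T at -0.38 fell the most. All 5 genes of the BRCA1-PALB2-BRCA2 axis and all 6 resection genes rose, while 2 of the 3 RPA subunits fell and RPA3 did not pass. The count of calls rested on both replicates 3: without that of HAP1 edgeR called 1 member and without that of HELLS KO 19, while the median log2 fold change stayed at 0.32 in both fits and 31 and 34 members had an unadjusted p under 0.05.

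Within each line taken alone, with no test, replicate 3 lay above both other libraries for 39 of 57 members in HAP1 and 38 in HELLS KO, and below both for 15 and 13. Over all tested genes it lay above both for 46.4% in HAP1 and 42.6% in HELLS KO, and below both for 43.8% and 40.4%. The members' median log2 ratio was 0.33 in HAP1 and 0.30 in HELLS KO, beside 0.024 and 0.019 over all genes. For 53 of 57 members the sign was the same in both lines. BRCA2 had a log2 ratio of 1.04 in HAP1 and 0.98 in HELLS KO, and XRCC3 of -0.64 and -0.75. The batch label and the depth cannot be told apart, since replicate 3 differs in both. The coefficient of variation of TMM-scaled CPM over 3 replicates had a median of 15.5% in HAP1 and 16.3% in HELLS KO.

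**Figure D2:**
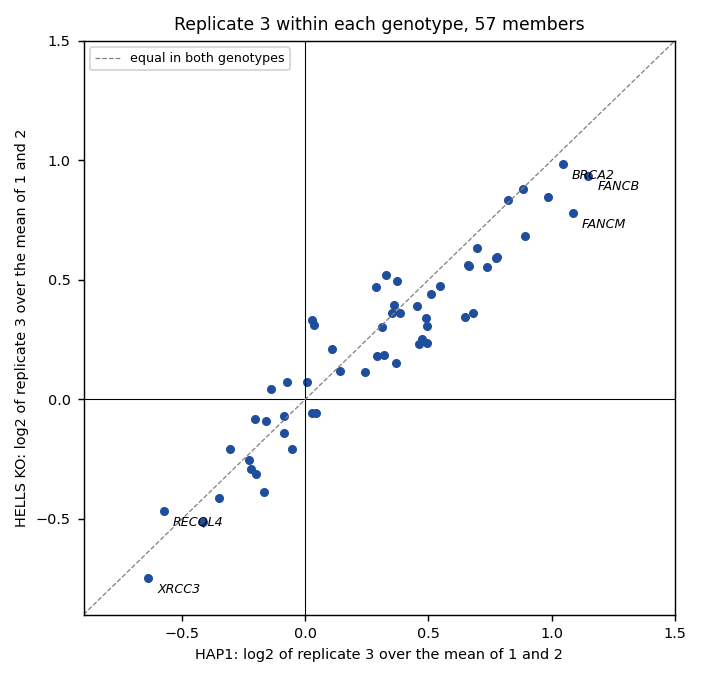
Log2 of replicate 3 over the mean of replicates 1 and 2 in HAP1 (x axis) and in HELLS KO (y axis) for 57 members; each point is 1 gene and the dashed line marks equal values. For 53 of 57 members the sign is the same in both lines, with BRCA2, FANCB and FANCM at the upper right and XRCC3 and RECQL4 at the lower left.

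The shift of replicate 3 went with the base composition of the transcript. Across members the log2 fold change of replicate 3 had a Spearman correlation of -0.79 with the G+C of the canonical transcript (57 genes), and across all tested genes with a transcript it was -0.61 (17688 genes). Genes share their libraries and are not independent replicates, so these are descriptions. All 18 members with under 40% G+C rose, beside 58.6% of all genes in that range, and their median was 0.63 beside 0.46. Among 23 members with 40 to 50% G+C, 14 rose (60.9%) and 4 fell (17.4%), beside 33.0% and 12.4% of all genes in that range, with a median of 0.36 beside 0.22. Of 16 members with 50% G+C or more, 1 rose (6.25%) and 4 fell (25%), beside 4.005% and 44.3% of all genes, with a median of -0.063 beside -0.30. Members were poorer in G+C than other genes, with a median of 43.4% beside 48.7%. The members' shift had a Spearman correlation of 0.57 with transcript length, beside 0.34 over all genes, and of -0.38 with counts per base, beside -0.20. The parts of base composition, length and depth in the shift were not tested. The genotype fold change had a Spearman correlation of -0.17 with G+C across the members and -0.21 across all genes. With transcript length it was 0.31 across the members beside 0.034, and with counts per base -0.080 beside -0.021.

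**Figure D3:**
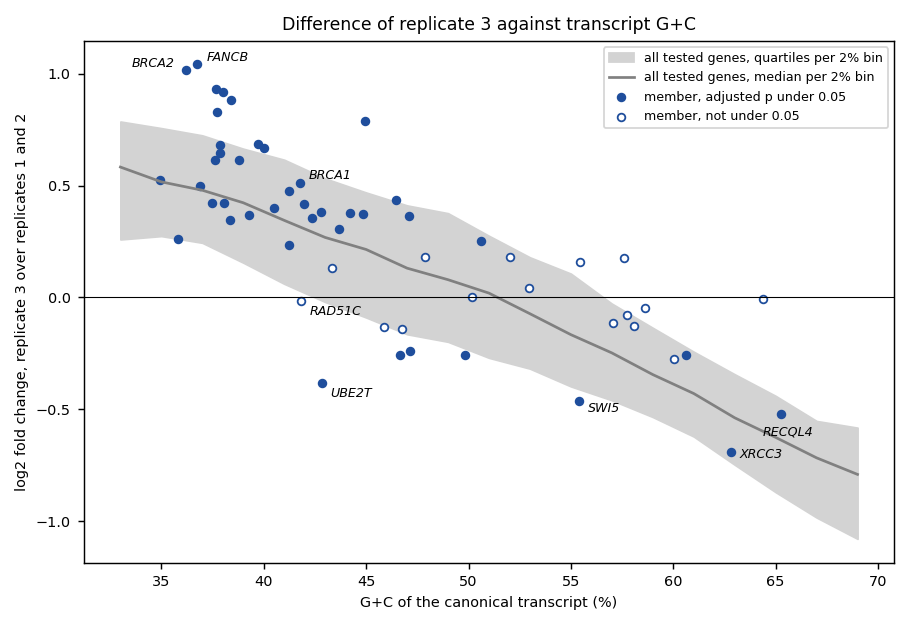
Log2 fold change of replicate 3 over replicates 1 and 2 (y axis) against G+C of the canonical transcript in percent (x axis); points are members, filled where the adjusted p was under 0.05, and the grey line and band are the median and quartiles of all tested genes in bins of 2%. Points fall from FANCB and BRCA2 at the upper left to XRCC3 and RECQL4 at the lower right, in the same direction as all genes. The members' median lies above that of all genes under 40% G+C (0.63 beside 0.46), at 40 to 50% (0.36 beside 0.22) and at 50% or more (-0.063 beside -0.30).

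Among the lists read beside the members, 0 of 50 other genes of break repair, Fanconi factors and fork protection were called between genotypes by edgeR, 0 had an unadjusted p under 0.05, and their median log2 fold change was 0.017. The extremes were ATRIP, the partner of the ATR kinase, at -0.44 (SE 0.51) and SHLD3, a shieldin subunit, at 0.39 (SE 0.36). Of 22 S phase genes and 20 G2/M genes, 0 were called and 0 had an unadjusted p under 0.05, with medians of -0.0091 and 0.0035. The summed level of the S phase list was 3341 to 4037 CPM in HAP1 and 3280 to 4069 in HELLS KO, and that of the G2/M list 3957 to 4096 and 3741 to 4488. In replicate 3, 18 of the 50 other repair genes rose and 10 fell, while 1 S phase gene rose and 15 fell and 1 G2/M gene rose and 8 fell. Of 20 meiotic recombination partners 11 were tested and 0 called. Of the cell type markers, KIT (log2 fold change -2.90, edgeR adjusted p = 0.015), EPCAM (-4.88, adjusted p = 0.0015) and KRT8 (-2.61, adjusted p = 0.0015) were lower in HELLS KO. These were 1 of 4 tested hematopoietic and 2 of 3 tested epithelial markers, and 0 of 2 tested fibroblast markers were called. With the replicate block 1 fibroblast marker, PDGFRA, was also called lower (log2 fold change -1.63, edgeR adjusted p = 0.00024, against -1.59 and 0.061 without the block). The summed level of the epithelial list was 101 to 145 CPM in HAP1 and 48.3 to 65.1 in HELLS KO, and that of the fibroblast list 143 to 152 and 59.9 to 76.8, with DCN and LUM at 0 in every library. The part of these markers in the members' levels was not tested.

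A coding gene starts on the opposite strand within 1000 bases of the annotated start of 28 members, as ZAR1L does 277 bases from BRCA2 and ANKRD49 does 94 bases from MRE11. Of the 27 such neighbors tested, 0 were called by edgeR and 0 had an unadjusted p under 0.05, and their log2 fold changes ran from -0.40 to 0.16 with a median of -0.010. Some members share transcribed sequence with an overlapping gene. KLC1 holds 71.5% of the 31-base stretches of XRCC3, FSBP 64.4% of those of RAD54B, PYROXD1 36.6% of those of RECQL, the unnamed gene ENSG00000286235 32.7% of those of MCM8, SPSB3 27.0% of those of EME2 and ZNF276 17.0% of those of FANCA. A readthrough transcript holds 74.5% of those of RAD50. Levels of these members are uncertain to that extent, and the strand setting of the counting is not given in the sources used here.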

How the data were processed

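Total RNA of 6 libraries was made into directional libraries, and, per the labels and methods, the authors aligned reads with STAR 2.7.3a to GRCh38, kept non-duplicated reads of mapping quality 20 or more and counted them per gene with featureCounts 2.0.6. The deposited counts were used for all tests. The deposited FPKM values, computed by the authors from the same counts, were recomputed within 0.1% for 100% of values. The gene lengths used for this were derived from the FPKM values, so it checks the scaling between libraries and not the lengths. The FPKM values were used for levels between genes. They list the 24956 genes with more than 10 counts in total. No measured column was left unused. Of 60483 identifiers, 56321 matched a symbol. Genes were filtered with filterByExpr by genotype (17925 tested), scaled by TMM, and fitted with edgeR 4.0.16 (R 4.3.3) with p-values adjusted by Benjamini-Hochberg over all tested genes. Alternatives were DESeq2 1.42.0, upper-quartile scaling, other filters, a replicate block, replicates 1 and 2 alone, and leaving out each library. Intervals cover 95%. In edgeR the SE is an approximation, the absolute log2 fold change over the square root of F of the quasi-likelihood test, used with the t distribution. DESeq2 intervals use its own SE and the normal distribution. The submitters' processing notes also name DESeq2 1.44.0. Scripts were tested on simulated data.

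Same-numbered libraries were checked for pairing: their deviations from the line means correlated at 0.50, 0.24 and 0.83 for numbers 1, 2 and 3. Across numbers, HAP1 replicate 2 correlated at 0.70 with HELLS KO replicate 1 and HAP1 replicate 1 at 0.40 with HELLS KO replicate 2, both above the value for number 2. The values set replicate 3 apart but do not show that numbers 1 and 2 pair the samples. The fit on genotype did not use the numbers as pairs, and the replicate block was an alternative. The methods call the replicates biological, and no 2 libraries of a line agreed within sampling noise (chi-square of at least 2.34 per gene). The members and lists were chosen with earlier results of these data known. Values in every library were given for the 4 highest and 4 lowest members, the 5 largest fold changes in each direction, members past a threshold or without overlap, the 3 steadiest and 3 most variable members in HAP1, and 13 genes of central roles. Other members are given by range or fold change.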

Additional observations from a re-analysis of the deposited data

Results flagged for a closer look

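SPATA22, a meiotic partner of recombination that is not among the 58 genes, had 0 counts in all 3 HAP1 libraries and 6, 10 and 11 counts in HELLS KO. It did not pass the filter on low counts and so was not in the fit reported. Its level in HELLS KO was 0.521 ± 0.156 CPM (SD, n = 3), at least 2.82-fold higher than HAP1 at the limit of 3 counts in each library, a mean of 0.185 CPM. It was singled out because a signal appeared in data outside the comparisons, above the limit that a count of 0 allows in HAP1. The same list of meiotic partners also held MEIOB, with 1, 1 and 9 counts in HAP1 and 0 in each HELLS KO library, and HORMAD2, with 0 in each HAP1 library and 2 in each HELLS KO library, both chosen after their values were seen. The cause was not tested.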

How the results depend on the processing

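Under DESeq2, upper-quartile scaling, both other filters, the replicate block, replicates 1 and 2 alone and every left-out library, 0 members were called between genotypes. Intervals within 2-fold numbered 53 in the fit on genotype, 57 with the replicate block (77.1% of all genes), and 50 to 57 over the alternatives, with 50 to 52 when a library was left out. Without HAP1 replicate 3, NBN and MCM9 had an unadjusted p under 0.05 in edgeR, and the smallest adjusted p of the members was 0.37. In the edgeR fit on genotype with every library, 6.59% of all genes had an unadjusted p under 0.05. Of the members' log2 fold changes under the alternatives, 587 kept their sign and 97 changed it, most of them when a library was left out (22 members without HELLS KO replicate 3), and 0 passed the threshold. Members called between replicate 3 and the others numbered 37 to 43 over the other tools, scalings and filters, and 1 to 44 when a library was left out. The order by mean level had a Spearman correlation across members of 0.993 with that by the mean over HELLS KO. With TMM-scaled CPM per kb it was 1. The gene lengths used there were derived from the FPKM values themselves, so that value was nearly fixed in advance and does not check the order. Counts under 10 in a library, as for SLX1A, are too few for a fold.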
